A study of Oryza sativa with 18 samples.

Results

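The flag leaf of the rice line Huhan7B was compared between plants left without irrigation during grain filling and well-watered plants. Huhan7B is a parent of the hybrid Hanyou73, and the study asked which drought responses distinguish the hybrid from its parental lines. The comparison rests on 6 of the 18 libraries of the study, chosen by their genotype and treatment labels: 3 of Huhan7B under drought and 3 of Huhan7B in water. The other 12 libraries are the same pair of treatments in Hanhui3, the second parent, and in Hanyou73, again with 3 libraries each. Drought began at early grain filling, and the labels state the same field conditions, stage and time of day for every group. Each library was made from flag leaves pooled over several plants of a single plot, so the replicate error is that of pools. Whether the 3 pools of a group came from separate plots is not given in the sources used here. A pooled leaf sample also cannot tell fewer cells of a type from less RNA per cell. How long irrigation had been withheld and the water status of the leaves are not given in the sources used here.

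Expression is given as FPKM, a fragment count scaled for transcript length and library depth. Of 38993 genes listed, 22590 reached an FPKM of 1 in at least 3 of the 18 libraries and were tested, and 15386 stayed below that level. The 6 Huhan7B libraries held an estimated 14.3 to 16.5 M fragments each, and their values summed to between 1044202 and 1073968. Across genes, Pearson's r was 0.987 to 0.989 between Huhan7B libraries of the same treatment and at most 0.957 with any other group, and no library stood apart. The metallothionein gene OsMT3a was the most abundant gene in every Huhan7B library, with 4.2% to 4.88% of the total. The 100 most abundant genes took 34.1% to 34.7% of the total under drought and 31.3% to 31.6% in water. In the text, levels are means ± SD over 3 libraries per group, and log2 changes (drought minus water, on the log2(FPKM + 1) scale) carry ± the standard error of the limma fit. A gene is said to have risen or fallen where its Benjamini-Hochberg adjusted p was under 0.05 over all tested genes.

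The flag leaf is the main source of sugar for the growing rice grain. When soil dries, abscisic acid (ABA) builds up in leaves, binds PYL/RCAR receptors, and so releases SAPK kinases from clade A protein phosphatases 2C. The kinases then activate bZIP factors that switch on protective genes such as LEA proteins and dehydrins, while stomata close. Late in grain filling a flag leaf also senesces: chlorophyll is broken down and nitrogen of the leaf moves to the grain. Drought often speeds this programme, which is why genes of both processes are described here.

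Under drought 12037 of the 22590 tested genes changed in Huhan7B, or 53.3%. Of these, 4781 rose, 21.2% of the tested genes, and 7256 fell, 32.1% of them. Most changes were small: 1681 genes, 7.44%, changed at least 2-fold, 781 upwards (3.46%) and 900 downwards (3.98%). The median tested gene moved by -0.065. Median-ratio size factors, which put that median at 0.009, turned the split of the changed genes: 52.1% of them were then higher, against 39.7% as reported. In 13492 genes, 59.7% of those tested, the 3 drought values and the 3 water values did not overlap, so a lack of overlap is common here. Each list of genes is therefore read against these shares, and a list near them is not read as a response of its family.

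**Figure D1:**
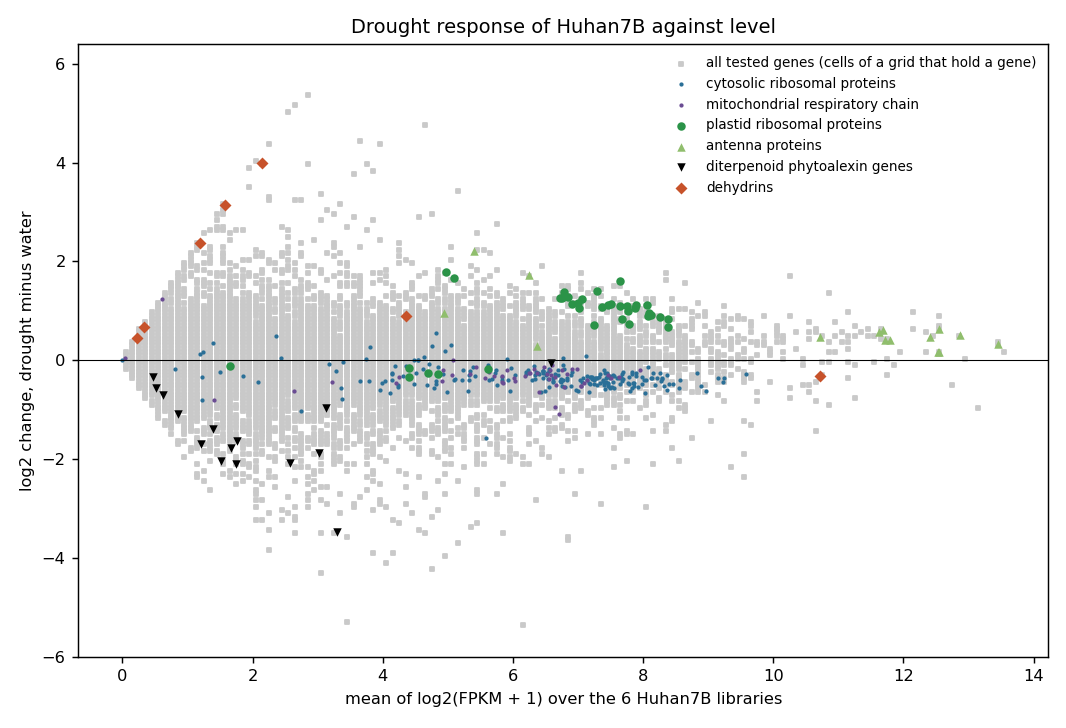
Log2 change under drought (drought minus water, y axis) against the mean of log2(FPKM + 1) over the 6 Huhan7B libraries (x axis). Grey marks show where tested genes lie, and coloured symbols show the members of 6 lists. The 30 plastid ribosomal genes that rose, of 36 tested, lie well above the band of cytosolic ribosomal genes, of which 173 of 220 fell, and 13 of 15 diterpenoid phytoalexin genes fell.

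Most genes of dehydration proteins rose. LEA3 (Os05g0542500), a group 3 LEA protein thought to shield proteins and membranes as cells dry, had 30.4, 39.9 and 43.1 FPKM under drought, against 0, 0.18 and 0 FPKM in water. The water libraries were thus at or near 0 while every drought library was above 30, and the log2 change of 5.18 ± 0.12 depends on the pseudocount (adjusted p = 3.9e-14). RAB16B (Os11g0454200), a dehydrin, had 17.9, 16.7 and 15.4 FPKM under drought, against 0.23, 0 and 0.11 FPKM in water (log2 change 3.99 ± 0.11). Its neighbour RAB16C (Os11g0454000) had 6.55, 8.6 and 8.47 FPKM under drought, against 0, 0 and 0 FPKM in water, and RAB16A (Os11g0454300) had 3.58, 4.52 and 4.48 FPKM under drought, against 0, 0 and 0 FPKM in water. All 3 water libraries were listed at 0 for RAB16A and RAB16C, so no fold is given. The RAB16 genes lie side by side and are alike in sequence, and the split of reads between them is uncertain. RAB16D (Os11g0453900) reached 0.613 ± 0.268 FPKM under drought and was listed at 0 in water.

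The most abundant dehydrin did not follow them. OsLEA24 (Os03g0655400), annotated as dehydrin 13, had 1534, 1470.3 and 1527 FPKM under drought, against 1812, 1848 and 1955 FPKM in water, so every drought library lay below every water library (log2 change -0.31 ± 0.044). DHN1 (Os02g0669100), also called LIP9, had 27 ± 1.202 FPKM under drought and 14.1 ± 0.884 FPKM in water and rose by 0.90 ± 0.067. In all, 6 of the 7 tested dehydrin genes rose and OsLEA24 fell. Because OsLEA24 dominates their total, the summed dehydrin level was 1567 ± 34.3 FPKM under drought and 1886 ± 75.3 FPKM in water. Among 13 other LEA genes, 7 rose and 3 fell, with a median log2 change of 0.58. That median was 0.31 without drought replicate 3 and 2.13 with a pseudocount of 0.1, which also put the dehydrin median of 0.90 at 2.77. The 3 that fell were Os04g0598000, with 324 ± 7.62 FPKM under drought and 445 ± 11.2 FPKM in water, OsLEA7 (Os03g0843300), and LEA8 (Os05g0584200), and the last 2 of these calls were lost with size factors. Their high levels again set the sum, which was 449.6 ± 7.54 FPKM under drought and 536 ± 15.5 FPKM in water.

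**Figure D2:**
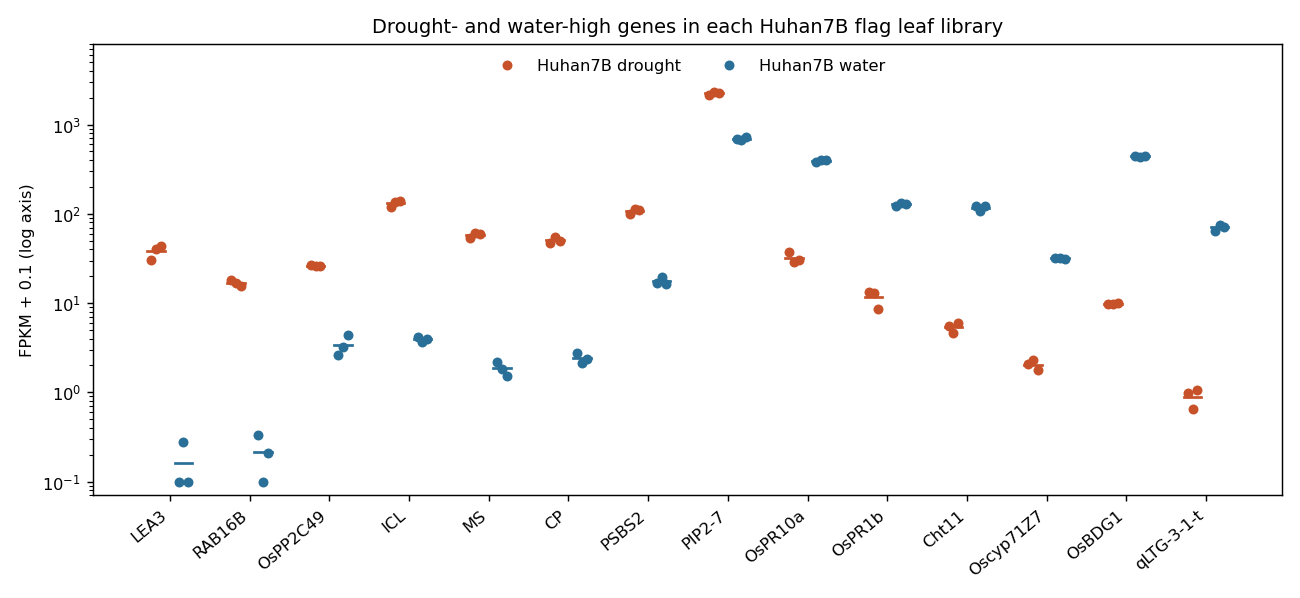
Level of 14 genes in each Huhan7B library, as FPKM + 0.1 on a log axis, with drought libraries left of water libraries for each gene and a bar at the mean of each 3. LEA3 and RAB16B stand at or near 0 in water and above 15 in the drought means, while OsBDG1 stands near 443 FPKM in water and below 10 under drought, and no gene shown has overlapping groups.

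ABA genes moved at several steps. For synthesis, NCED3 (Os03g0645900), a 9-cis-epoxycarotenoid dioxygenase that catalyses the committed step, had 3.49, 4.48 and 3.91 FPKM under drought, against 1, 1 and 1.12 FPKM in water. The drought values lay above the water values, with a log2 change of 1.28 ± 0.12 (adjusted p = 3.7e-07). NCED4 (Os07g0154100) was listed at 0 in all 3 water libraries and reached 0.697 ± 0.0709 FPKM under drought, while NCED5 (Os12g0617400) fell, with 0.827 ± 0.0416 FPKM under drought and 2.45 ± 0.37 FPKM in water. OsABA1 (Os04g0448900), the zeaxanthin epoxidase gene, had 557 ± 7.66 FPKM under drought and 603 ± 8.34 FPKM in water, a fall of 0.11 ± 0.025 whose call was lost with size factors. Of 8 tested genes listed under ABA synthesis, 4 rose and 2 fell. Another pair that rose, Os11g0127800 (1.03 ± 0.066) and Os12g0124000 (0.99 ± 0.061), entered the list by similarity to zeaxanthin epoxidase alone and carry an FHA domain in the deposited annotation. For breakdown, the 8'-hydroxylase gene Os05g0101600 had 18.6, 19.6 and 20.1 FPKM under drought, against 6.88, 6.91 and 6.65 FPKM in water, a log2 change of 1.39 ± 0.081, and ABA8OX2 (Os08g0472800) had 29.2 ± 1.09 FPKM under drought and 18.1 ± 1.09 FPKM in water. ABA8OX1 (Os02g0703600), of the same family, fell by 0.36 ± 0.10, a call lost with size factors.

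Of the signalling genes, the clade A phosphatases rose most evenly, 6 of 7 with none falling and a median of 0.87. These phosphatases hold SAPK kinases inactive until ABA is bound. OsPP2C49 (Os05g0457200) had 26.5, 25.7 and 26.1 FPKM under drought, against 2.54, 3.12 and 4.25 FPKM in water, a log2 change of 2.67 ± 0.11 (adjusted p = 1.8e-11), and the drought libraries lay above all water libraries. OsPP2C08 (Os01g0656200), PP2C1 (Os09g0325700) and OsPP2C30 (Os03g0268600) rose by 0.88 ± 0.081, 0.87 ± 0.10 and 0.85 ± 0.10. SAPK kinases had 7 members of 10 higher and 1 lower. SAPK7 (Os04g0432000) and SAPK10 (Os03g0610900) rose by 0.74 ± 0.10 and 0.68 ± 0.088, while SAPK6 (Os02g0551100) fell by 0.33 ± 0.062. SAPK2 (Os07g0622000), at 59.02 ± 2.46 FPKM under drought and 56.9 ± 2.36 FPKM in water, and SAPK8 (Os03g0764800), at 73.3 ± 1.39 FPKM under drought and 77.8 ± 2.29 FPKM in water, were not called. With size factors SAPK2 was called higher, and SAPK8 was called lower without drought replicate 1, without water replicate 3 or with the stricter filter on low values.

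Group A bZIP factors, which bind ABA-responsive elements, rose for 6 of 10 members with none falling. OsbZIP72 (Os09g0456200) had 76.3, 81.1 and 76.9 FPKM under drought, against 39.1, 40.5 and 43.6 FPKM in water, a log2 change of 0.91 ± 0.054, with no overlap. bZIP23 (Os02g0766700) rose by 0.92 ± 0.069, OsbZIP29 (Os03g0322700) by 0.83 ± 0.10 and bZIP12 (Os01g0867300) by 0.35 ± 0.073. bZIP46 (Os06g0211200), at 4.8 ± 0.514 FPKM under drought and 3.68 ± 0.289 FPKM in water, was called at an adjusted p of 0.046 that was lost in 5 of the 6 fits without a library and with the replicate number as a block. ABI5 (Os01g0859300) stayed below the level needed for testing. ABA receptors were split, with 2 of 6 rising and 2 falling, and their median of -0.06 changed sign with size factors. OsPYL-RCAR10 (Os10g0573400) rose by 0.50 ± 0.12.

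Transcription factor families showed no common direction. Of 7 DREB factors, which bind the dehydration-responsive element, 3 rose and 1 fell. DREB1A (Os09g0522200) had 36.5, 35.6 and 38.3 FPKM under drought, against 17.3, 18.04 and 19.7 FPKM in water, a log2 change of 0.97 ± 0.15, and DREB1B (Os09g0522000) had 33.03 ± 1.76 FPKM under drought and 22.8 ± 2.202 FPKM in water. For both genes every drought value exceeded every water value. DREB2B (Os05g0346200) fell by 0.24 ± 0.042, and DREB2A (Os01g0165000), at 11.5 ± 1.303 FPKM under drought and 11.4 ± 0.743 FPKM in water, was not called. Of 60 NAC factors, 20 rose and 18 fell. Those that rose included NAC6 (Os01g0884300), a stress factor also known as SNAC2, with 480.2 ± 23.5 FPKM under drought and 301 ± 3.61 FPKM in water, and ONAC028 (Os02g0555300), which rose by 1.63 ± 0.21. Those that fell included NAC95 (Os06g0726300), by 1.56 ± 0.12, and ONAC066 (Os03g0777000), by 1.48 ± 0.09. NAP (Os03g0327800), which promotes leaf senescence in rice, had 75.5 ± 8.82 FPKM under drought and 88.7 ± 0.284 FPKM in water, and its call (adjusted p = 0.032) was lost in 4 of the 6 fits without a library and with size factors.

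WRKY factors, many of them regulators of defence, had 19 members of 57 lower and 11 higher, a balance that turned with size factors. At 33.3% and 19.3% they were near the shares of all tested genes. OsWRKY77 (Os01g0584900) had 2.97, 3.75 and 3.31 FPKM under drought, against 13.1, 13.9 and 11.2 FPKM in water, and the groups did not overlap. OsWRKY14 (Os01g0730700), OsWRKY69 (Os08g0386200) and OsWRKY5 (Os05g0137500) fell by 1.47 ± 0.09, 1.46 ± 0.11 and 1.29 ± 0.13. WRKY53 (Os05g0343400), the most abundant of these, rose by 0.45 ± 0.10, and OsWRKY67 (Os05g0183100) by 0.58 ± 0.052. Heat stress factors, which switch on chaperone genes, had 4 members of 20 higher and 6 lower. OsHsfC1b (Os01g0733200) had 48.6 ± 2.76 FPKM under drought and 17.2 ± 1.49 FPKM in water, a log2 change of 1.45 ± 0.083, and HSFA4D (Os05g0530400) had 4.78 ± 0.728 FPKM under drought and 18.3 ± 1.67 FPKM in water, a log2 change of -1.74 ± 0.11.

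Photosynthesis genes rose broadly. The antenna proteins, which bind chlorophyll and pass light energy to the photosystems, rose for 14 of 15 members with none falling, and their summed level was 66342 ± 3899 FPKM under drought and 49866 ± 528 FPKM in water. CAB1R (Os09g0346500), an abundant antenna gene of photosystem II, had 11627, 12926 and 13233 FPKM under drought, against 10245, 9892 and 9927 FPKM in water, and the groups did not overlap (log2 change 0.33 ± 0.059). Lhcb1.1 (Os01g0720500), a less abundant gene of the same type, rose further, with 84.1, 88.7 and 99.3 FPKM under drought, against 18.8, 18.9 and 18.4 FPKM in water and a log2 change of 2.22 ± 0.10. Lhca6 (Os09g0439500) had 138 ± 6.604 FPKM under drought and 41.01 ± 3.12 FPKM in water, a log2 change of 1.73 ± 0.074.

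Subunits of photosystem I rose for 6 of 9 members with none falling, among them OsPS1-F (Os03g0778100), by 0.76 ± 0.067, and PsaD (Os08g0560900), by 0.59 ± 0.041. Photosystem II subunits had 17 members of 23 higher and 2 lower. PsbR (Os07g0147500), a small subunit linked to oxygen evolution, moved the other way and had 6877, 6526 and 6433 FPKM under drought, against 12844, 12933 and 12838 FPKM in water. The drought libraries lay close together and far below the water libraries, a log2 change of -0.96 ± 0.062 (adjusted p = 2.9e-09). PsbR is among the most abundant members, and the summed photosystem II level was 37714 ± 113 FPKM under drought and 37766 ± 374 FPKM in water, although most members rose. PSB28 (Os01g0938100), an assembly factor, rose by 1.19 ± 0.077, and the PsbP domain gene Os12g0564400 by 0.85 ± 0.039. Genes of the cytochrome b6f complex, plastocyanin and plastid ATP synthase, which carry electrons and make ATP, rose for 9 of 10 members with none falling and a median of 0.72. OsPC (Os06g0101600), the plastocyanin gene, had 7244, 7404 and 7405 FPKM under drought, against 4575, 4352 and 4942 FPKM in water, and its groups did not overlap.

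Carbon fixation genes followed. RCA (Os11g0707000), the Rubisco activase, had 5993, 6664 and 6244 FPKM under drought, against 3216, 3393 and 3226 FPKM in water, a log2 change of 0.94 ± 0.05 (adjusted p = 3.4e-10). RBCS3 (Os12g0291100), a small subunit of Rubisco, had 6512, 6369 and 6421 FPKM under drought, against 4323, 4335 and 4274 FPKM in water, and RBCS2 (Os12g0274700) had 3117 ± 31.7 FPKM under drought and 1612 ± 39.8 FPKM in water. Drought libraries were higher in each of these genes without overlap. The RBCS genes on chromosome 12 are near-identical, so how reads were shared among them is uncertain. Rubisco small subunits and activases rose in 6 of 8 cases, and their sum was 18219.9 ± 277 FPKM under drought and 10734 ± 115 FPKM in water. Other Calvin cycle enzymes had 17 members of 20 higher and 1 lower, with a median of 0.65. OsCFR (Os03g0267300), a plastid fructose-1,6-bisphosphatase, had 478 ± 40.8 FPKM under drought and 242 ± 11.7 FPKM in water, and the triosephosphate isomerase gene Os09g0535000 had 289.5 ± 9.52 FPKM under drought and 142 ± 2.26 FPKM in water. Os01g0303000, for the Calvin cycle regulator CP12-1, had 13096, 12680.4 and 12741 FPKM under drought, against 10135, 10100.2 and 10234 FPKM in water and was among the genes with the largest gain in FPKM.

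Photorespiration, which recovers carbon from the oxygenation side reaction of Rubisco, had 17 members of 27 higher and 5 lower. OsGDCH (Os10g0516100), the H protein of the glycine cleavage system, had 356, 336 and 322 FPKM under drought, against 115, 122 and 119.8 FPKM in water, with no overlap. The glycerate kinase gene Os01g0682500 had 278 ± 9.68 FPKM under drought and 168 ± 2.06 FPKM in water, while the serine hydroxymethyltransferase gene OsSHM2 (Os11g0455800) fell by 0.42 ± 0.056. Photoprotection genes rose for 7 of 8 members with none falling. PSBS2 (Os04g0690800), a sensor that turns excess light into heat, had 99.5, 112 and 109 FPKM under drought, against 16.8, 19.6 and 16.1 FPKM in water, a log2 change of 2.55 ± 0.061 (adjusted p = 3.9e-14). Its more abundant relative PSBS1 (Os01g0869800) had 893 ± 73.4 FPKM under drought and 420.3 ± 8.55 FPKM in water. ELIP (Os01g0246400), an early light-inducible protein outside the list, had 28.1 ± 2.48 FPKM under drought and 30.4 ± 2.08 FPKM in water and was not called.

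Chlorophyll synthesis and breakdown genes rose at the same time. For synthesis, 17 of 24 genes rose and 4 fell, and the summed level was 6417 ± 65.5 FPKM under drought and 4464 ± 31.6 FPKM in water. ChlM (Os06g0132400), a methyltransferase after the magnesium step, had 171, 153 and 174 FPKM under drought, against 72.5, 71.1 and 67.2 FPKM in water, and FGL (Os10g0496900), a light-dependent reductase also called OsPorB, had 852, 955 and 978 FPKM under drought, against 533, 505 and 515 FPKM in water. Both genes were higher in every drought library. CAO (Os10g0567400), which makes chlorophyll b, fell by 0.27 ± 0.032, and OsPorA (Os04g0678700) by 0.26 ± 0.063, the second call being lost with size factors. For breakdown, 9 of 14 genes rose and 1 fell. SGR (Os09g0532000), the stay-green protein that removes magnesium, had 103, 109.6 and 114 FPKM under drought, against 46.5, 44.5 and 47.99 FPKM in water, a log2 change of 1.21 ± 0.14. NOL (Os03g0654600) and NYC1 (Os01g0227100), which together reduce chlorophyll b, had 56.8 ± 3.14 FPKM under drought and 17.5 ± 1.73 FPKM in water, and 505 ± 16.6 FPKM under drought and 242 ± 6.62 FPKM in water. NYC3 (Os06g0354700), a pheophytinase, rose by 0.48 ± 0.081, PAO (Os03g0146400), which opens the chlorophyll ring, by 0.50 ± 0.034, and RCCR1 (Os10g0389200), the next enzyme, by 0.76 ± 0.068. The chlorophyllase gene OsCHL (Os10g0419600) fell by 0.57 ± 0.066.

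Plastid ribosomal proteins had one of the higher list medians, 1.07, with 30 of 36 genes rising and 4 falling. Their summed level was 8202 ± 56.04 FPKM under drought and 4077 ± 24.3 FPKM in water. Os09g0279500, for a protein of the small subunit, had 346, 355 and 335 FPKM under drought, against 110.4, 116 and 114 FPKM in water and a log2 change of 1.60 ± 0.041. The gene rpl12-1 (Os05g0568300), for protein L12, had 57.6 ± 5.18 FPKM under drought and 15.9 ± 1.12 FPKM in water, and Os03g0751400, for protein L6, had 59.9 ± 4.06 FPKM under drought and 18.2 ± 0.631 FPKM in water. WGL2 (Os03g0769100), for protein S9, had 222, 317 and 232 FPKM under drought, against 100.4, 91.1 and 94.2 FPKM in water, more variable than the others but without overlap. Of the 4 that fell, the call for Os01g0251100, for protein L3-2, held in each setting tried (-0.34 ± 0.067), and the other 3 calls were lost with size factors.

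Starch synthesis genes rose for 15 of 19 members with none falling. SSI (Os06g0160700), a soluble starch synthase, had 52.7, 48.3 and 50.9 FPKM under drought, against 19.5, 16.5 and 16.8 FPKM in water, a log2 change of 1.48 ± 0.054. The granule-bound synthase of leaves, GBSSII (Os07g0412100), had 94.4 ± 2.66 FPKM under drought and 58.3 ± 1.43 FPKM in water, and AGPL1 (Os03g0735000), a large subunit of the ADP-glucose pyrophosphorylase that feeds the pathway, had 136 ± 7.52 FPKM under drought and 78.95 ± 3.33 FPKM in water. SBE1 (Os06g0726400), a starch branching enzyme outside the list because its annotated name is 1,4-alpha-glucan-branching enzyme, fell, with 59.7 ± 3.52 FPKM under drought and 79.95 ± 0.116 FPKM in water. Starch degradation genes had 12 members of 23 higher and 4 lower. OsSTA246 (Os10g0465700), a plastid beta-amylase, had 34.5, 40.99 and 45.2 FPKM under drought, against 9.84, 9.6 and 7.78 FPKM in water, a log2 change of 2.03 ± 0.11, and OsSTA30 (Os01g0715400), a plastid alpha-amylase, rose by 0.74 ± 0.067. Os03g0351300, named as an inactive beta-amylase, rose by 1.60 ± 0.17.

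For sucrose, 12 of 27 genes of synthesis and transport rose and 4 fell. FR (Os01g0866400), the cytosolic fructose-1,6-bisphosphatase that opens the route to sucrose, had 239, 228 and 228 FPKM under drought, against 95.2, 93.1 and 92.2 FPKM in water, a log2 change of 1.30 ± 0.033 (adjusted p = 8.3e-14). The sucrose phosphate synthase genes diverged: sps11 (Os11g0236100) had 103 ± 11.3 FPKM under drought and 62.7 ± 4.73 FPKM in water, while SPS1 (Os01g0919400) and OsSPS2 (Os02g0184400) fell by 0.59 ± 0.068 and 0.39 ± 0.055. SUT1 (Os03g0170900), a sucrose carrier of phloem loading, had 21.99, 24.3 and 23.8 FPKM under drought, against 24.1, 23.3 and 25.6 FPKM in water. Its groups overlapped and it was not called (log2 change -0.06 ± 0.041, adjusted p = 0.28). Among SWEET exporters, SWEET13 (Os12g0476200) had 3.8, 3.7 and 4.45 FPKM under drought, against 0.44, 0.41 and 0.46 FPKM in water, SWEET14 (Os11g0508600) had 3.07 ± 0.225 FPKM under drought and 1.47 ± 0.331 FPKM in water, and OsSWEET1a (Os01g0881300) rose by 0.85 ± 0.063. SWEET15 (Os02g0513100) was listed at 0 in each water library and reached 1.83 ± 0.218 FPKM under drought. SWEET11 and SWEET12 stayed below the level needed for testing.

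Raffinose and galactinol synthases, which make protective sugars, had 7 members of 9 higher and 2 lower. The raffinose synthase gene Os07g0209100 had 64.8, 78.1 and 77.1 FPKM under drought, against 8.88, 7.89 and 8.32 FPKM in water, and GolS1 (Os03g0316200), a galactinol synthase, had 4.37, 4.35 and 5.96 FPKM under drought, against 0.48, 0.39 and 0.45 FPKM in water. Both were higher in every drought library, while Osh69 (Os08g0495800), annotated as a galactinol-sucrose galactosyltransferase, had 29.7, 31.4 and 33.5 FPKM under drought, against 112, 114 and 113 FPKM in water and lay lower in every drought library (log2 change -1.81 ± 0.041). Membership rests on annotated names, so whether Osh69 makes these sugars is not shown here. With Osh69 included, the summed level was 187 ± 11.9 FPKM under drought and 174 ± 1.44 FPKM in water. Trehalose-phosphate enzymes had 5 members of 14 higher and 5 lower. OsTPS5 (Os02g0790500) rose by 0.59 ± 0.067, and TPS1 (Os05g0518600) fell by 0.52 ± 0.058.

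The glyoxylate cycle, by which cells turn acetyl units from fat into sugar precursors, was marked by its key enzymes. ICL (Os07g0529000), isocitrate lyase, had 118, 136 and 138 FPKM under drought, against 4.02, 3.61 and 3.85 FPKM in water, a log2 change of 4.77 ± 0.12 (adjusted p = 9.5e-14). MS (Os04g0486950), malate synthase, had 53.6, 60.3 and 59.7 FPKM under drought, against 2.1, 1.75 and 1.41 FPKM in water, a log2 change of 4.42 ± 0.10. Both genes were low in water and more than 30-fold higher under drought, at ratios of the means of 34.1 and 33.02. The glyoxysomal malate dehydrogenase gene Os03g0773800, also used by photorespiration, rose as well, with 1304 ± 3.29 FPKM under drought and 828 ± 12.9 FPKM in water. Of the 5 tested genes of the cycle, 3 rose and none fell. Peroxisomal beta-oxidation, which supplies the acetyl units, did not move with them: 1 of 12 genes rose and 5 fell, a balance that turned with size factors. The thiolase gene Os10g0457600 fell by 0.80 ± 0.045, and the multifunctional protein gene Os01g0348600 rose by 0.20 ± 0.044. Phosphoenolpyruvate carboxykinase takes the carbon on towards sugar. Its gene Os03g0255500, singled out after its values were seen, had 322, 324 and 331 FPKM under drought, against 464, 456 and 447 FPKM in water, lower in every drought library (log2 change -0.48 ± 0.047), and PEPCK (Os10g0204400) stayed below the level needed for testing.

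Respiration genes fell. In the mitochondrial respiratory chain 42 of 52 genes fell and none rose, with a median of -0.32 (-0.21 with size factors) and a sum of 3631 ± 130.4 FPKM under drought and 4655 ± 42.7 FPKM in water. OsCOX6b2 (Os04g0498200), a subunit of cytochrome c oxidase, had 79.7, 72.7 and 61.4 FPKM under drought, against 155, 151 and 149 FPKM in water, with no overlap. In the TCA cycle 23 of 31 genes fell and 1 rose. The citrate synthase gene Os02g0194100 had 14.8 ± 1.48 FPKM under drought and 28.8 ± 0.705 FPKM in water, SDH1 (Os07g0134800), of succinate dehydrogenase, had 52.04 ± 1.55 FPKM under drought and 83.9 ± 6.399 FPKM in water, and the succinate-CoA ligase gene Os07g0577700 fell by 1.00 ± 0.062. The gene that rose, Os06g0246500, encodes a pyruvate dehydrogenase subunit and had 5.73 ± 0.726 FPKM under drought and 1.13 ± 0.412 FPKM in water. Glycolysis genes had 27 members of 54 lower and 10 higher. GAPDH (Os04g0486600), a cytosolic glyceraldehyde-3-phosphate dehydrogenase, had 138, 133 and 133 FPKM under drought, against 382, 386 and 373 FPKM in water, a log2 change of -1.49 ± 0.05. Copies of the same cytosolic enzyme moved in opposite directions: OsPGK2 (Os02g0169300), a phosphoglycerate kinase, fell by 1.41 ± 0.049, and PGK (Os06g0668200), another, rose by 1.79 ± 0.064.

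Genes of nutrient recycling were mixed. CP (Os08g0556900), a KDEL-tailed cysteine endopeptidase of a type linked to programmed cell death, had 47.6, 54.4 and 49.97 FPKM under drought, against 2.66, 2.04 and 2.28 FPKM in water, a log2 change of 3.96 ± 0.081 (adjusted p = 1.2e-14). Against this, Os01g0613800, named as a senescence-specific protease similar to SAG39, had 0.53, 0.65 and 0.62 FPKM under drought, against 12.7, 11.7 and 12.9 FPKM in water, a fall of 3.07 ± 0.12. Neither gene had overlapping groups. Cysteine proteases as a list had 9 members of 12 higher and 2 lower. The list total was 6047 ± 21.99 FPKM under drought and 5917 ± 86.2 FPKM in water, most of it from Os09g0442300, the oryzain gamma gene, with 3503 ± 47.98 FPKM under drought and 3703 ± 48.5 FPKM in water. Its small fall was called as reported, lost in each of the 6 fits without a library, and its sign turned with size factors. Autophagy genes, which act in bulk breakdown of cytoplasm, had 6 members of 25 higher and 9 lower, and their median of -0.08 changed sign with size factors. At 24.0% and 36.0% they were near the shares of all tested genes. OsATG13a (Os02g0644500) rose by 0.52 ± 0.053, and OsATG8e (Os11g0100100) fell by 0.52 ± 0.065.

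For nitrogen, the plastid glutamine synthetase GS2 (Os04g0659100) had 984, 939 and 937 FPKM under drought, against 641, 650.3 and 656 FPKM in water, whereas the cytosolic form GS1;1 (Os02g0735200), used in remobilisation, had 119, 127 and 137 FPKM under drought, against 172, 172 and 173 FPKM in water. The plastid form was higher and the cytosolic form lower in every drought library. NiR (Os01g0357100), nitrite reductase, and OsNR1 (Os08g0468100), nitrate reductase, both rose, by 0.55 ± 0.12 and 0.55 ± 0.077. The ammonium transporter AMT3 (Os03g0838400) had 15.4, 14.96 and 16.4 FPKM under drought, against 103, 107 and 116 FPKM in water, a log2 change of -2.73 ± 0.075, and a second one, OsAMT3 (Os02g0550800), had 1.703 ± 0.0851 FPKM under drought and 17.9 ± 1.35 FPKM in water. ASN1 (Os03g0291500), an asparagine synthetase, rose, with 3.69 ± 0.624 FPKM under drought and 0.18 ± 0.0624 FPKM in water. The list as a whole had 7 genes of 26 up and 8 down, with a median whose sign changed with size factors. At 26.9% and 30.8% it was near the shares of all tested genes. Proteasome subunits, which degrade tagged proteins, had 48 members of 63 lower and 2 higher, and their sum was 3108 ± 72 FPKM under drought and 4180.0 ± 53.96 FPKM in water. OsRpt1b (Os02g0784700), of the regulatory particle, fell by 0.91 ± 0.05, OsPBC1 (Os06g0643100), of the core, by 0.85 ± 0.066, and Os03g0758400, for the assembly factor annotated as regulatory subunit 10, rose by 0.71 ± 0.062.

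Most cytosolic ribosomal protein and histone genes fell. Cytosolic ribosomal protein genes had 173 members of 220 lower and 5 higher, with a median of -0.36 and a sum of 25559 ± 426 FPKM under drought and 33378 ± 251 FPKM in water. OsRPS29 (Os03g0773150) had 215, 206 and 198 FPKM under drought, against 304, 329 and 344 FPKM in water, with no overlap. Histones had 29 members of 40 lower and 1 higher, and their sum was 9704 ± 125 FPKM under drought and 14837 ± 179 FPKM in water. The linker histone gene Os06g0130800 had 1287, 1426 and 1475 FPKM under drought, against 1893, 1887 and 1941 FPKM in water, and the histone H2A gene Os07g0545300 had 19.2 ± 0.746 FPKM under drought and 48.1 ± 1.21 FPKM in water. Histone copies are near-identical in sequence, so single members are uncertain. Markers of dividing cells other than histones, such as cyclins and kinetochore proteins, had 10 members of 27 lower and 2 higher. Among cellulose synthases and related genes 5 of 15 fell and 2 rose, and OsCslE6 (Os09g0478300) fell by 0.68 ± 0.029. Of 10 expansins, which loosen walls, 2 rose and 1 fell, and 48 others were below the level needed for testing.

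Several abundant defence genes fell far. OsPR10a (Os12g0555500), a pathogenesis-related protein of class 10, had 37.6, 28.6 and 30.1 FPKM under drought, against 381, 401 and 399.9 FPKM in water, a log2 change of -3.59 ± 0.084 (adjusted p = 3.5e-14). RSOsPR10 (Os12g0555000), a relative first described in roots, had 32.4, 36.97 and 28.1 FPKM under drought, against 376, 419.7 and 425 FPKM in water. RPR10b (Os12g0555200), between them in the same cluster, had 6.47 ± 0.892 FPKM under drought and 83.2 ± 3.79 FPKM in water. For all 3 genes every drought library lay far below the lowest water library. The members of this cluster are alike in sequence, so their individual values are uncertain. OsPR1b (Os01g0382000), a class 1 protein, had 13.3, 12.99 and 8.51 FPKM under drought, against 121, 133 and 129.8 FPKM in water, and the thaumatin-like gene Os12g0629600 had 9.02 ± 2.05 FPKM under drought and 79.2 ± 3.397 FPKM in water. Against these, the thaumatin-like gene Os03g0244200 rose, with 29.5 ± 2.35 FPKM under drought and 8.26 ± 0.142 FPKM in water. By count, 8 of 19 tested pathogenesis-related genes fell (42.1%) and 3 rose (15.8%), against 32.1% and 21.2% of all tested genes. Their sum was 114 ± 5.597 FPKM under drought and 749 ± 11.1 FPKM in water. RSOsPR10 is not in this list, because its deposited names do not carry the terms searched for.

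Chitinases, which cut fungal walls, had 6 members of 14 lower (42.9%) and 3 higher (21.4%), against 32.1% and 21.2% of all tested genes. Their median near 0 changed sign with size factors. Cht11 (Os03g0132900) had 5.41, 4.58 and 5.9 FPKM under drought, against 122, 107 and 122 FPKM in water, a log2 change of -4.23 ± 0.091, and Cht8 (Os10g0542900) had 12.2, 13.2 and 14.8 FPKM under drought, against 142, 133 and 144 FPKM in water. The drought values of these abundant genes lay far below their water values, and the summed chitinase level was 71.05 ± 4.04 FPKM under drought and 348 ± 16.5 FPKM in water. Diterpenoid phytoalexin genes, which make the antimicrobial momilactones, phytocassanes and oryzalexins, fell in 13 of 15 cases with none rising, with a median of -1.64. Oscyp71Z7 (Os02g0570700), a hydroxylase of the phytocassane route, had 1.97, 2.2 and 1.67 FPKM under drought, against 31.96, 32.1 and 30.7 FPKM in water, and CPS2 (Os02g0571100), the diphosphate synthase at its start, had 1.63, 1.78 and 2.3 FPKM under drought, against 11.2, 10.6 and 11.8 FPKM in water. Of the momilactone cluster, CPS4 (Os04g0178300) had 0.43, 0.41 and 0.38 FPKM under drought, against 5.65, 4.13 and 4.74 FPKM in water, and CYP99A3 (Os04g0178400) and CYP99A2 (Os04g0180400) fell by 1.78 ± 0.12 and 1.64 ± 0.16. KSL7 (Os02g0570400), the cassadiene synthase, stood apart at 93.4, 91.4 and 93.98 FPKM under drought, against 95.3, 97.7 and 95.1 FPKM in water, with no call (log2 change -0.05 ± 0.035, adjusted p = 0.28).

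Lipoxygenases, which start jasmonate and leaf aldehyde synthesis, diverged. OsLOX1 (Os02g0194700) had 492, 577 and 601 FPKM under drought, against 183, 180.2 and 184 FPKM in water, while Lox2-Os-1 (Os08g0508800) had 3.9, 5.45 and 5.22 FPKM under drought, against 43.8, 41.4 and 41.9 FPKM in water and OsLOX8 (Os08g0509100) had 10.8 ± 0.714 FPKM under drought and 43.01 ± 1.07 FPKM in water. The first was higher and the second lower in every drought library, and of 10 tested genes 4 rose and 2 fell. TIFY repressors of jasmonate signalling had 4 members of 10 higher and 4 lower, with OsJAZ8 (Os09g0401300) lower by 0.78 ± 0.043. Protease inhibitors had 5 members of 20 higher and 6 lower, a balance that turned with size factors. The oryzacystatin gene Oc2 (Os05g0494200) had 159 ± 9.56 FPKM under drought and 260.3 ± 6.6 FPKM in water, and the Bowman-Birk inhibitor gene RBBI2-3 (Os01g0124650) had 6.98 ± 0.399 FPKM under drought and 3.76 ± 0.641 FPKM in water.

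Heat shock proteins and other chaperones had 22 members of 49 lower and 12 higher. OsBiP1 (Os02g0115900), the chaperone of the endoplasmic reticulum, had 104, 107 and 111 FPKM under drought, against 425, 436 and 438 FPKM in water, a log2 change of -2.01 ± 0.034 (adjusted p = 1.3e-15). The mitochondrial chaperone gene OsHsp58.7 (Os09g0491772) fell by 1.34 ± 0.069, and the HSP70 gene Os03g0218500 rose by 1.43 ± 0.082. Among superoxide dismutases, catalases and ascorbate peroxidases, which remove reactive oxygen, 9 of 20 rose and 6 fell. Chloroplast forms were among those that rose, as with OsSOD4 (Os08g0561700), which had 357, 358 and 362 FPKM under drought, against 148, 154 and 155 FPKM in water, and APX8 (Os02g0553200), which rose by 0.64 ± 0.03. CATA1 (Os02g0115700), the peroxisomal catalase A, had 1269, 1385 and 1427 FPKM under drought, against 2566, 2532 and 2653 FPKM in water, and OsAPX1 (Os03g0285700), a cytosolic peroxidase, fell by 0.41 ± 0.037. Glutathione S-transferases had 25 members of 55 lower and 10 higher, with a sum of 1616 ± 9.62 FPKM under drought and 2431 ± 42.1 FPKM in water. OsGSTU17 (Os09g0467200) had 247, 243 and 249 FPKM under drought, against 736, 733 and 770.4 FPKM in water, and OsGSTU10 (Os10g0531400) had 17.3 ± 1.099 FPKM under drought and 81.8 ± 4.53 FPKM in water.

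For proline, a compatible solute, both synthesis genes rose: P5CS1 (Os05g0455500) had 40.2, 36.8 and 38.01 FPKM under drought, against 26.3, 26.02 and 23.3 FPKM in water, and P5CS2 (Os01g0848200) had 12.6 ± 0.512 FPKM under drought and 6.34 ± 0.45 FPKM in water. OsProDH (Os10g0550900), which breaks proline down, had 25.4, 28.02 and 27.8 FPKM under drought, against 37.01, 36.2 and 38.4 FPKM in water. The synthesis genes were higher and the breakdown gene lower in every drought library. Metallothioneins, small cysteine-rich proteins that bind metals, had 3 members of 10 higher and 3 lower. MTd (Os05g0202800) had 3565 ± 157 FPKM under drought and 2323 ± 9.55 FPKM in water, while MT1A (Os11g0704500) had 1084, 885 and 958 FPKM under drought, against 2604, 2565 and 2591 FPKM in water. MT1A was thus lower in every drought library, with a log2 change of -1.41 ± 0.093. The cysteine synthase gene rcs1 (Os12g0625000) had 318, 305 and 300.1 FPKM under drought, against 1400.5, 1397 and 1398 FPKM in water, a log2 change of -2.18 ± 0.033 and an adjusted p of 3.9e-16.

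Aquaporins, which let water through membranes, had 7 members of 22 higher and 7 lower. The plasma membrane aquaporin gene Os09g0541000, PIP2-7, had 2156, 2303 and 2266 FPKM under drought, against 698, 668 and 717 FPKM in water, a log2 change of 1.69 ± 0.04 (adjusted p = 3.5e-14). It was the most abundant of the family under drought and raised the summed level to 4176 ± 135 FPKM under drought and 2637 ± 76.1 FPKM in water. Os04g0233400, PIP2-6, had 26.5 ± 1.71 FPKM under drought and 7.06 ± 0.549 FPKM in water, while Os02g0823100, PIP1-3, had 173, 174 and 160.2 FPKM under drought, against 291, 290.2 and 310.2 FPKM in water. Lipid-transfer proteins, which carry lipids to the cuticle and cell wall, had 17 members of 32 higher and 2 lower. OsLTP2.4 (Os05g0550300) had 14.8, 12.03 and 13.4 FPKM under drought, against 0.21, 0.38 and 1.15 FPKM in water, and Os11g0115400 had 680.1, 682 and 720.3 FPKM under drought, against 239, 235 and 225 FPKM in water. Lipid-transfer genes on chromosomes 11 and 12 have near-identical copies and are uncertain as single genes. Genes of wax and very-long-chain fatty acids had 14 members of 38 higher and 4 lower. OsCER2 (Os04g0611200) rose by 0.65 ± 0.11, and the elongase genes Os02g0205500 and KCS1 (Os05g0568000) fell by 1.13 ± 0.13 and 0.51 ± 0.11.

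Phenylpropanoid and lignin genes had 19 members of 51 higher and 19 lower. OsPAL (Os02g0626100), the phenylalanine ammonia-lyase at the head of the pathway, had 16.3, 22.7 and 12.9 FPKM under drought, against 215, 150.3 and 242 FPKM in water, variable in water but without overlap (log2 change -3.48 ± 0.34). GH2 (Os02g0187800), a cinnamyl alcohol dehydrogenase, had 7.57, 8.92 and 9.37 FPKM under drought, against 123, 119 and 125 FPKM in water. The laccase genes OsLAC7 (Os01g0850550) and OsLAC23 (Os11g0641500), which polymerise lignin, had 0.93 ± 0.115 FPKM under drought and 20.6 ± 0.468 FPKM in water, and 0.777 ± 0.211 FPKM under drought and 15.7 ± 1.95 FPKM in water. Among those that rose, the cinnamoyl-CoA reductase gene OsCCR19 (Os09g0419200) had 134 ± 7.45 FPKM under drought and 57.5 ± 2.18 FPKM in water. Both laccases are also in the marker list of stem and vascular tissue. Of its 65 genes 31 were listed at 0 in all 6 libraries, 26 were tested, 6 rose and 3 fell, and the summed level was 13.2, 17.2 and 14.9 FPKM under drought, against 46.2, 45.0 and 49.45 FPKM in water. How far these tissues had a part in the result was not tested.

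Clock genes, whose transcripts cycle over the day, had 5 members of 16 higher and 6 lower, and both their balance and the sign of their median turned with size factors. CCA1 (Os08g0157600), a morning gene, had 34.9 ± 1.96 FPKM under drought and 47.6 ± 2.12 FPKM in water, and TOC1 (Os02g0618200), an evening gene, had 127 ± 3.19 FPKM under drought and 111 ± 1.93 FPKM in water. Among CONSTANS-like and flowering genes, 9 of 26 rose and 9 fell. Hd3a (Os06g0157700), a mobile flowering signal of rice, fell, with 5.8, 6.34 and 6.16 FPKM under drought, against 11.3, 15.9 and 11.1 FPKM in water, and every drought library lay below every water library. OsCCT01 (Os01g0835700) rose by 0.99 ± 0.15. Genes of branched-chain amino acid breakdown, which can feed respiration when sugar is short, had 5 members of 11 higher and 3 lower. The methylcrotonoyl-CoA carboxylase gene OsL55 (Os12g0605800) rose by 0.56 ± 0.045, and the isovaleryl-CoA dehydrogenase gene Os05g0125500 fell by 0.24 ± 0.028.

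**Figure D3:**
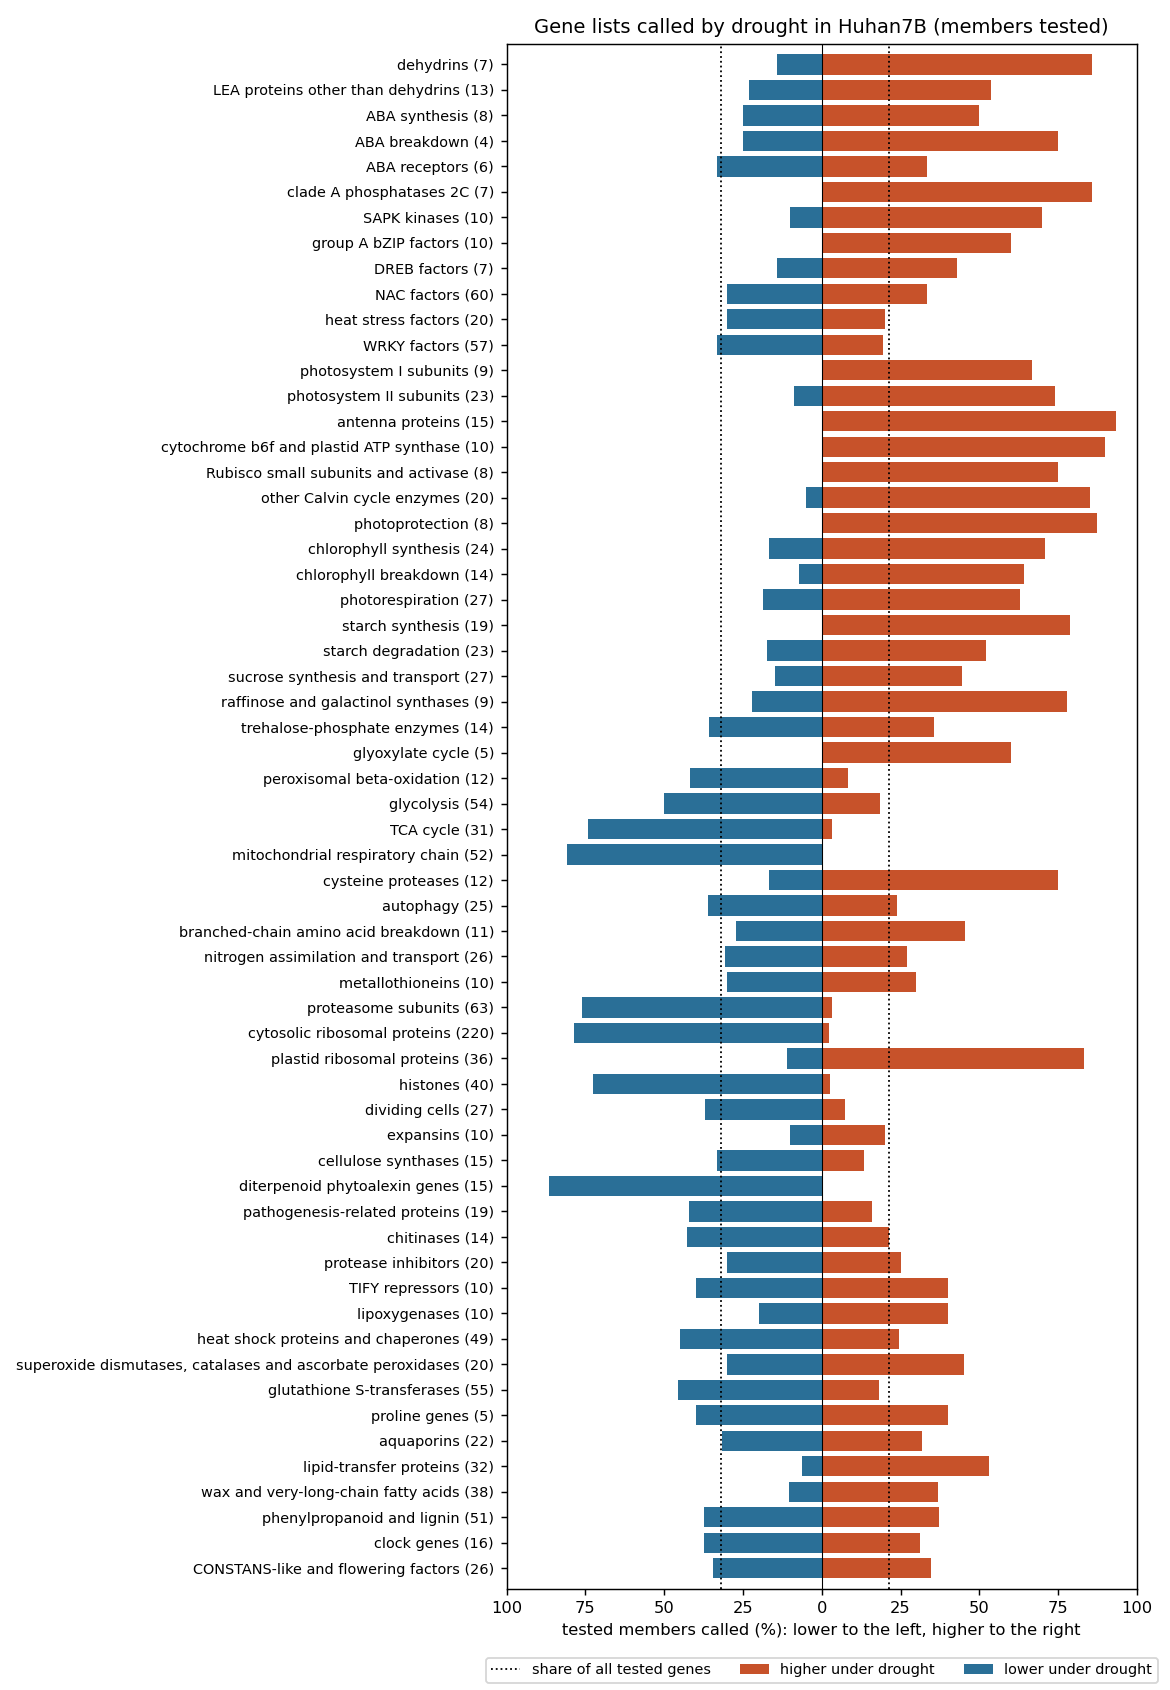
Share of the tested members of each of 60 gene lists that fell (left of 0) or rose (right of 0) under drought in Huhan7B, in percent, with the number of tested members in brackets. The dotted lines mark the shares over all tested genes, 32.1% lower and 21.2% higher. Photosynthesis, starch synthesis and plastid ribosome lists lie mostly to the right, and the respiratory chain, TCA cycle, proteasome, cytosolic ribosome, histone and phytoalexin lists mostly to the left.

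Several of the larger rises lay outside these lists. OsADF3 (Os03g0820500), an actin-depolymerizing factor, had 38.2, 43.6 and 46.7 FPKM under drought, against 1.95, 1.93 and 2.66 FPKM in water, a log2 change of 3.79 ± 0.14. OsRCI2-5 (Os03g0286900), a small membrane protein of a family induced by cold and salt, had 27.2, 28.1 and 28.5 FPKM under drought, against 1.47, 0.33 and 1.02 FPKM in water. OsENODL18 (Os06g0681200), an early nodulin-like protein, had 11.6, 12.4 and 12.3 FPKM under drought, against 0.08, 0.08 and 0.39 FPKM in water. In all 3 genes the water libraries were low. The lack of overlap was a condition of the rule that picked these genes for large changes, so it adds no support. Os01g0910800, a gene whose annotated name is S100-A9 but which carries no domain in the deposited annotation, had 25.5 ± 1.47 FPKM under drought and 1.63 ± 0.626 FPKM in water. RMP8 (Os07g0664600), annotated as a momilactone A synthase and outside the phytoalexin list, rose by 3.21 ± 0.16, against the direction of that list.

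Other genes fell as far. OsBDG1 (Os11g0514400), a leucine-rich repeat protein, had 9.58, 9.7 and 9.89 FPKM under drought, against 449, 437 and 442 FPKM in water, a log2 change of -5.37 ± 0.11 (adjusted p = 7.8e-15). The glycine-rich cell wall gene qLTG-3-1-t (Os03g0103300) had 0.89, 0.55 and 0.95 FPKM under drought, against 64.7, 74.5 and 71.98 FPKM in water. OsHyPRP04 (Os03g0103200), its neighbour and a cortical cell-delineating protein, had 0.15, 0.33 and 0.31 FPKM under drought, against 15.7, 20.9 and 15.1 FPKM in water. The groups lay far apart in these genes too, but the rule that picked them asked for large changes without overlap. The neighbours are alike in sequence and uncertain as single genes. OsHyPRP04 is also in the marker list of root, of whose 25 genes 19 were listed at 0 in all 6 libraries, 6 were tested, 3 fell and none rose. The summed root marker level was 35.1, 35.9 and 33.8 FPKM under drought, against 53.8, 60.4 and 55.2 FPKM in water, and its part in the result was not tested. OsAT5 (Os05g0278500), an acyl transferase, had 7.03 ± 0.9601 FPKM under drought and 122 ± 2.64 FPKM in water.

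Measured by FPKM gained or lost, abundant leaf genes led. Beside those described above, OsDR8 (Os07g0529600), a thiamine thiazole synthase, had 7178, 8798 and 9199 FPKM under drought, against 4695, 4321 and 4427 FPKM in water, and the antenna gene Os06g0320500 had 8935 ± 185 FPKM under drought and 6291 ± 89.2 FPKM in water. Falls were led by PsbR, followed among others by TRXH (Os07g0186000), thioredoxin h, with 1215, 1162 and 1146 FPKM under drought, against 1818, 1839.5 and 1810.2 FPKM in water, and Os11g0147800, named as a stem-specific protein, with 912 ± 42.9 FPKM under drought and 1545 ± 66.4 FPKM in water. OsASR5 (Os11g0167800), an abscisic acid, stress and ripening protein, had 2974, 3164 and 3189.5 FPKM under drought, against 3850.1, 3766 and 3883 FPKM in water, lower in every drought library, with a log2 change of -0.30 ± 0.032.

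Of 54 genes of the developing grain, such as glutelins and prolamins, 44 were listed at 0 in all 6 Huhan7B libraries and 4 were tested. Their summed level was 146.6, 146.8 and 149.1 FPKM under drought, against 132.9, 134.7 and 131.5 FPKM in water, without overlap, most of it from the seed storage protein gene Os05g0116000 with 103 ± 2.49 FPKM under drought and 84.5 ± 0.754 FPKM in water. Of 15 genes of pollen and flower, 9 were listed at 0 in all 6 libraries, 3 were tested, and the sums overlapped between the groups, at 12.4, 13.4 and 13.3 FPKM under drought and 11.8, 14.2 and 12.2 FPKM in water.

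The response of Huhan7B was set against those of Hanhui3 and Hanyou73 by testing the difference between the responses. These tests share the Huhan7B libraries, so their outcomes are not independent. Against Hanhui3, 12035 genes differed, 53.3% of those tested, 3866 with a higher response in Huhan7B (17.1%) and 8169 with a lower one (36.2%). Against Hanyou73, 14131 differed, 62.6%, 4131 with a higher response (18.3%) and 10000 with a lower one (44.3%). The excess of lower responses is tied to scaling: the median difference over all genes was -0.177 and -0.267, and with size factors it was 0.008 and -0.023. The share of differing genes with a higher response in Huhan7B was 32.1% against Hanhui3 and 29.2% against Hanyou73 as reported, and 52.9% and 50.4% with size factors. Taken alone and without size factors, each of the other genotypes had more genes rising than falling. The counts were 7934 (35.1%) and 4164 (18.4%) in Hanhui3, and 10161 (45.0%) and 5816 (25.7%) in Hanyou73. This excess is open to the same scaling. The median tested gene moved by 0.10 in Hanhui3 and 0.18 in Hanyou73 as reported, and by 0.0 and 0.02 with size factors. Of genes that rose in Huhan7B, 354 fell in both of the others (1.57% of tested genes), and of genes that fell in Huhan7B, 1188 rose in both (5.26%). These opposite calls were also counted without size factors, so their imbalance carries the same limit.

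The median of the antenna proteins was above 0 only in Huhan7B, at 0.47 in Huhan7B, -0.04 in Hanhui3 and -0.36 in Hanyou73. Their response was higher in Huhan7B than in Hanhui3 for 15 of 15 genes, and than in Hanyou73 for 11, with 1 lower. With size factors it was higher than in Hanhui3 for 15 and than in Hanyou73 for 13, with 1 lower. Chlorophyll breakdown had medians of 0.49 in Huhan7B, 0.20 in Hanhui3 and -0.71 in Hanyou73, with 12 of 14 genes higher than in Hanyou73 and 7 higher than in Hanhui3. SGR differed by 4.09 ± 0.20 from Hanyou73 and by 0.53 ± 0.20 from Hanhui3.

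Cytosolic ribosomal protein, histone and respiratory chain lists had medians below 0 in Huhan7B and above 0 in both other genotypes, except that the respiratory chain median of Hanyou73, 0.15, was -0.01 with size factors. Cytosolic ribosomal proteins had medians of -0.36 in Huhan7B, 0.43 in Hanhui3 and 0.49 in Hanyou73. Of 220 genes, 191 had a lower response in Huhan7B than in Hanhui3 and 193 than in Hanyou73. With size factors, 178 were lower than in Hanhui3 and 172 than in Hanyou73. Histone responses were lower than in Hanhui3 for 35 of 40 genes and than in Hanyou73 for 31. Those of the respiratory chain were lower than in Hanhui3 for 46 of 52 genes and than in Hanyou73 for 39, and with size factors for 41 and for 24. The proteasome depended on scaling: against Hanyou73 its response was lower for 17 and higher for 9 of 63 genes as reported, but higher for 30 and lower for 2 with size factors.

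For dehydrins, all 7 tested genes had a lower response than in Hanyou73, with medians of 0.90 in Huhan7B, 1.49 in Hanhui3 and 3.06 in Hanyou73. The size of these medians depends on the pseudocount, which at 0.1 put that of Huhan7B at 2.77. A lower response than in Hanyou73 was also found for 6 of 7 clade A phosphatases and for 24 of 32 lipid-transfer proteins. Against Hanhui3, dehydrins had 2 genes higher and 2 lower, and clade A phosphatases 3 higher and 1 lower. Lipid-transfer proteins had 2 higher and 19 lower than in Hanhui3. Against Hanyou73, the marker list of stem and vascular tissue moved the same way as the 3 lists. Its median was 0.00 in Huhan7B and 1.69 in Hanyou73, and 21 of its 26 tested genes had a lower response in Huhan7B, also with size factors. Its summed level in Hanyou73 was 197 to 204 FPKM under drought and 66.8 to 73.4 FPKM in water, with 25 of 65 genes listed at 0 under drought and 32 in water. The part of these tissues in the differences was not tested. Phytoalexin genes had medians of -1.64 in Huhan7B, -0.17 in Hanhui3 and 0.53 in Hanyou73, lower in Huhan7B than in Hanyou73 for 14 of 15 genes and than in Hanhui3 for 11. Protease inhibitors were lower than in Hanyou73 for 11 of 20 and than in Hanhui3 for 13, with none higher as reported. With size factors 11 were lower and 4 higher than in Hanyou73, and 9 lower and 1 higher than in Hanhui3. Pathogenesis-related genes were lower than in Hanyou73 for 13 of 19 and higher for 1, and chitinases lower for 11 of 14 and higher for 1. Against Hanhui3, 9 pathogenesis-related genes were lower and 2 higher, and 4 chitinases lower and 3 higher. TIFY repressors had 5 of 10 genes lower and 3 higher than in Hanyou73, and lipoxygenases 3 of 10 lower and 4 higher. Over all tested genes, 44.3% were lower and 18.3% higher than in Hanyou73, and 36.2% lower and 17.1% higher than in Hanhui3. TIFY repressors, and chitinases against Hanhui3, were near these shares, and lists near them are not read as differences of their families. Outside defence, glutathione S-transferases had 26 of 55 higher and 12 lower than in Hanyou73.

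**Figure D4:**
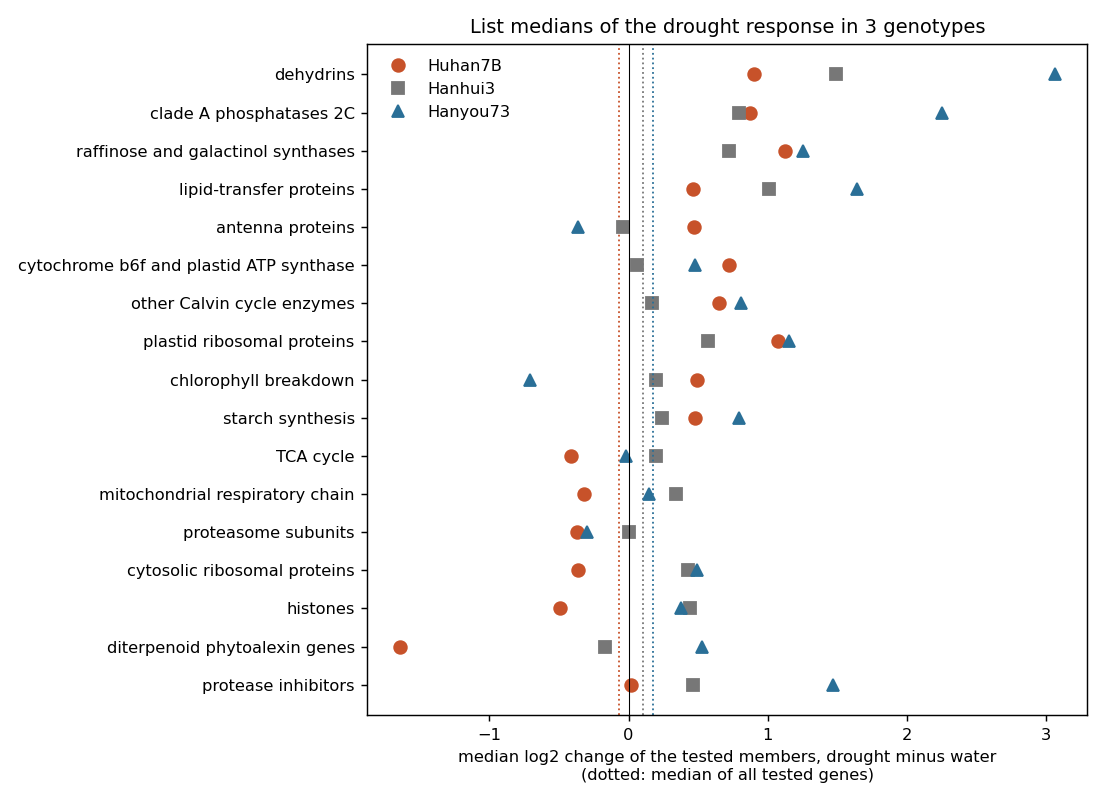
Median log2 change under drought (drought minus water, x axis) of the tested members of 17 gene lists in Huhan7B, Hanhui3 and Hanyou73. Dotted lines mark the median of all tested genes in each genotype. Huhan7B lies left of both other genotypes for cytosolic ribosomal proteins, histones, the respiratory chain, the TCA cycle, the proteasome and phytoalexin genes. The same holds for dehydrins, lipid-transfer proteins and protease inhibitors. It lies right of both for antenna proteins, cytochrome b6f and plastid ATP synthase, and chlorophyll breakdown. With size factors the proteasome median was -0.26 in Huhan7B and lower, at -0.47, in Hanyou73.

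By a rule of size, 16 genes were picked whose responses differed most from both other genotypes, so their differences are a description. The glyoxylate cycle genes were among them. ICL had 1.16 ± 0.469 FPKM under drought and 0.167 ± 0.136 FPKM in water in Hanhui3 and 9.997 ± 0.795 FPKM under drought and 25.03 ± 0.502 FPKM in water in Hanyou73, and its response in Huhan7B was higher by 3.89 ± 0.17 than in Hanhui3 and by 6.01 ± 0.17 than in Hanyou73. For MS the levels were 2.41 ± 0.153 FPKM under drought and 0.757 ± 0.224 FPKM in water in Hanhui3 and 16.1 ± 1.495 FPKM under drought and 17.1 ± 0.286 FPKM in water in Hanyou73. In water ICL and MS were thus more abundant in Hanyou73 than in Huhan7B, and under drought more abundant in Huhan7B. In Hanhui3 the means of both genes were also higher under drought than in water. Their Hanhui3 water means lay below the pseudocount of 1, so the size of their differences from Hanhui3 depends on it. CP had 1.42 ± 0.0814 FPKM under drought and 10.9 ± 0.764 FPKM in water in Hanhui3 and 6.61 ± 0.516 FPKM under drought and 6.27 ± 0.243 FPKM in water in Hanyou73, a fall in Hanhui3 and no call in Hanyou73.

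The PR10 genes and OsPR1b fell in Huhan7B and rose in both others. OsPR10a changed by -3.59 ± 0.084 in Huhan7B, 0.44 ± 0.084 in Hanhui3 and 2.32 ± 0.084 in Hanyou73. Levels in water differed as well: OsPR10a stood at 394 ± 11.2 FPKM in Huhan7B water libraries, against 26.9 FPKM in Hanhui3 and 45.6 FPKM in Hanyou73. Under drought it stood at 32.1 ± 4.83 FPKM in Huhan7B, 36.7 FPKM in Hanhui3 and 231.7 FPKM in Hanyou73. OsPR1b and RSOsPR10 had the same order in water, with 128 ± 6.23 FPKM and 407 ± 27.1 FPKM in Huhan7B.

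Other genes of the set rose in Huhan7B and fell in both others. OsATL7 (Os01g0825800), an amino acid transporter annotated as AVT6C, had 86.8, 94.8 and 102 FPKM under drought, against 73.2, 69.5 and 69.1 FPKM in water in Huhan7B, and changed by -3.43 ± 0.081 in Hanhui3 and -2.87 ± 0.081 in Hanyou73. OsLG3 (Os03g0183000), an ethylene response factor, had 7.32, 8.5 and 9.72 FPKM under drought, against 2.87, 2.63 and 2.7 FPKM in water, and Asr3 (Os01g0959100), an abscisic stress-ripening protein, had 6.61, 9.53 and 6.34 FPKM under drought, against 1.25, 1.37 and 1.63 FPKM in water. Both rose in Huhan7B and fell in Hanhui3 and Hanyou73. Os10g0575100, annotated as MYC2, had 6.82, 8.04 and 10.02 FPKM under drought, against 6.64, 1.8 and 4.48 FPKM in water, close to overlap, and its call in Huhan7B was lost without drought replicate 3, without water replicate 2, with the 6 Huhan7B libraries alone and with the smaller pseudocount.

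The last members need care. GRP (Os10g0450900), a glycine-rich wall protein, fell by 3.21 ± 0.15 in Huhan7B and changed by -0.02 ± 0.15 in Hanhui3 and 3.26 ± 0.15 in Hanyou73. Os10g0167401, annotated as enolase, had 0, 5.51 and 0 FPKM under drought, against 23.3, 47.6 and 38.6 FPKM in water, with a wide standard error (-4.27 ± 0.83). The plastid-encoded gene atpH, a subunit of ATP synthase, had 6.47, 7.16 and 7.64 FPKM under drought, against 0, 0 and 0 FPKM in water. Plastid transcripts are mostly not polyadenylated and enter poly(A) libraries only in part, and the standard error of its change was also wide (3.01 ± 0.96).

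**Figure D5:**
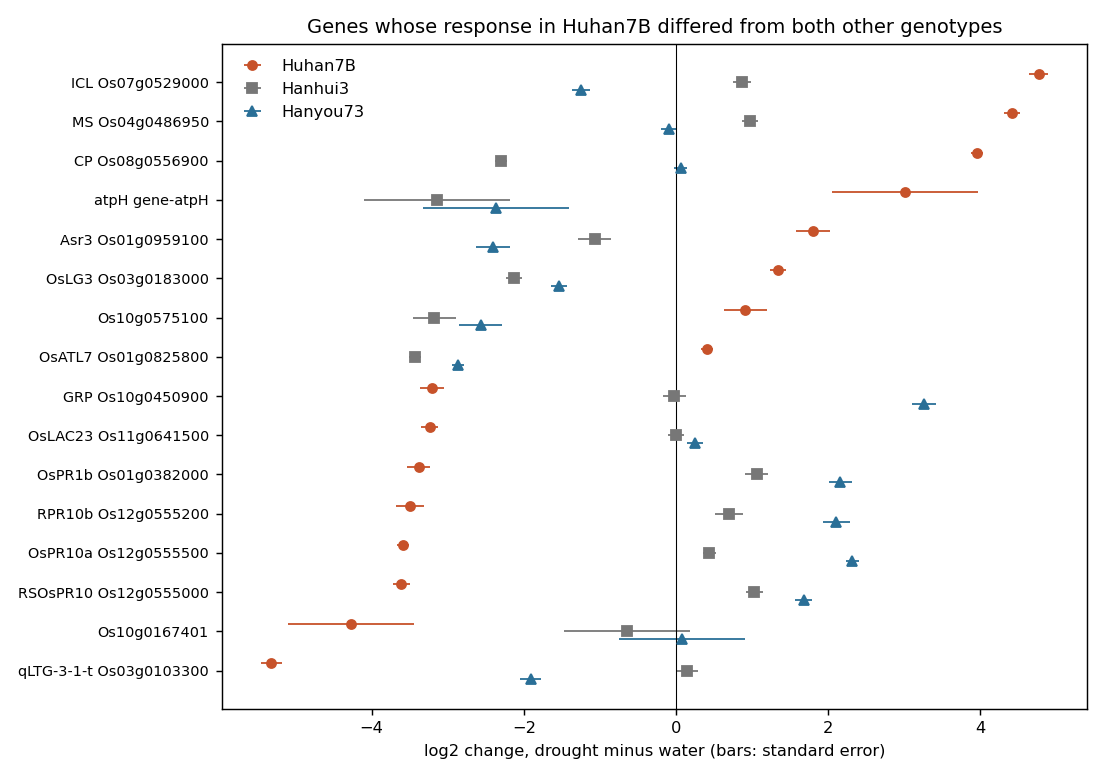
Log2 change under drought (drought minus water, x axis) in Huhan7B, Hanhui3 and Hanyou73 for the 16 genes whose response in Huhan7B differed most from both other genotypes, with bars for the standard error. The 8 upper genes rose in Huhan7B and the 8 lower genes fell, and the 4 pathogenesis-related genes lie left of 0 in Huhan7B and right of 0 in both others.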

How the data were processed

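Total RNA of rice flag leaves was extracted with TRIzol, and stranded poly(A) libraries were sequenced as 150-base pairs, per the labels' protocols, on an Illumina NovaSeq X Plus. The submitters' processing notes name fastp, HISAT2, StringTie, RSEM, DESeq2 and the build IRGSP-1.0, and neither their versions nor their roles are given in the sources used here. The authors deposited 1 table for the 18 libraries, whose values were read as FPKM from the values themselves, since neither header nor labels name the unit. Between 82.8% and 85.8% of low values in a library lay within 0.15 of a whole number of fragments once length was taken into account, too few for counts to be recovered, so no count test was run and depths are estimates.

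From these values log2(FPKM + 1) was computed, 1017 structural RNA rows were left out, and genes with an FPKM of at least 1 in 3 or more libraries were kept. limma 3.58.1 in R 4.3.3 (limma-trend) fitted the 6 group means over all 18 libraries, with Benjamini-Hochberg adjustment over the 22590 tested genes. On simulated data, 183 of 200 genes changed 2-fold were called, beside 7 unchanged ones. The simulation used normal noise of the fitted spread, and the changed genes were not drawn from the lowest levels. Far fewer genes changed in it than were called in the data, so it checks the fit and gives no error rates for the data. A single gene of 3 libraries against 3 could not go below an exact permutation p of 0.1, and no such test is given. Tables and figures were made with Python 3.11.15, pandas 2.3.3, numpy 2.4.6 and matplotlib 3.10.9.

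The 60 gene lists and 4 marker lists were built by searching the deposited symbols and product names, and these lists and the genes to describe were chosen with earlier results of these data known. Genes were picked by fixed rules: the 12 per direction with the largest log2 change, the 8 per direction with the largest difference in FPKM, up to 4 per direction in each list, a fixed set of drought and leaf genes taken whatever their values, and the 8 per direction whose response differed most from both other genotypes. A mean of at least 5 FPKM in the higher group was asked for in all of these but the FPKM difference and the fixed set, a product name in all but the lists and the fixed set, and no overlap between the groups in the first. With the gene singled out after its values were seen, this gave 421 genes, 95 of them from the fixed set. The text describes a part of them, so a gene left out is not thereby unchanged. Alternatives were median-ratio size factors, a pseudocount of 0.1, other filters on low values, the replicate number as a block, the 6 Huhan7B libraries alone, each Huhan7B library left out in turn, and a 2-fold minimum.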

Additional observations from a re-analysis of the deposited data

Results flagged for a closer look

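The difference between the drought response of Huhan7B and that of another genotype was tested for each of the 16 genes chosen because this difference was among the largest, so the values describe the choice. All are log2 values of Huhan7B minus the other genotype, and with size factors each of the 32 differences had the same sign and was called.

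Responses higher in Huhan7B were found in 8 genes. For ICL the difference was 3.89 from Hanhui3 and 6.01 from Hanyou73, and for MS 3.46 and 4.51 from the same genotypes. The sizes of the 3.89 and 3.46 depend on the pseudocount, because both genes were near 0 in Hanhui3 water libraries. CP differed by 6.26 from Hanhui3 and by 3.90 from Hanyou73. OsATL7 differed by 3.84 from Hanhui3 and by 3.29 from Hanyou73, and OsLG3 by 3.48 and 2.88. Asr3 differed by 2.87 from Hanhui3 and by 4.20 from Hanyou73. Os10g0575100 differed by 4.09 from Hanhui3 and by 3.48 from Hanyou73. For atpH, listed at 0 in the Huhan7B water libraries, the differences of 6.15 from Hanhui3 and 5.39 from Hanyou73 depend on the pseudocount.

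Responses lower in Huhan7B were found in the other 8. OsPR10a differed by -4.03 from Hanhui3 and by -5.91 from Hanyou73, RSOsPR10 by -4.64 and -5.30, and RPR10b by -4.20 and -5.61. OsPR1b differed by -4.44 from Hanhui3 and by -5.53 from Hanyou73. The wall protein gene qLTG-3-1-t differed by -5.47 from Hanhui3 and by -3.41 from Hanyou73, and GRP by -3.19 and -6.47. OsLAC23 differed by -3.24 from Hanhui3 and by -3.48 from Hanyou73, and Os10g0167401, which varied widely between libraries, by -3.63 and -4.35.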

How the results depend on the processing

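Of the 12037 calls in Huhan7B, 10336 held with size factors, 11739 with a pseudocount of 0.1, 11484 with no filter on low values, 10914 with the 6 Huhan7B libraries alone and between 10706 and 11024 without one library, and none of these calls changed sign. A 2-fold minimum left 1681 genes, 781 higher and 900 lower. Size factors moved the balance most: against Hanhui3 5791 genes had a higher response and 5147 a lower one, and against Hanyou73 6229 were higher and 6140 lower. Of the 12035 differences from Hanhui3, 3014 lost their call with size factors and 8 were called with the other sign. Of the 14131 from Hanyou73, 3826 lost it and 35 were called with the other sign. With size factors 14 lists had a median below 0, against 22 as reported. The signs of GI (0.001, adjusted p = 0.99), Os06g0498400 (0.044, adjusted p = 0.11) and Os09g0442300 (0.032, adjusted p = 0.4) turned with size factors in the limma fit. Of the named results, 28 more lost their call with size factors and 3 gained one, and between 8 and 21 lost it without a given library. The cause of these changes was not tested. Libraries with the same replicate number did not deviate together (correlations of -0.039, 0.025 and -0.011, and not every library correlated best with its own number). No pairing by number was thus seen in the values, which cannot show whether the numbers mark shared plots. With the replicate block 11875 genes were called, 4714 higher and 7161 lower, 11851 against Hanhui3 and 13956 against Hanyou73. With 3 pools a group, genes near the filter are the least precise.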
